A study of Rattus norvegicus with 14 samples.

Results

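Satellite glia are the cells that wrap the bodies of sensory neurons in the dorsal root ganglion, and 10 genes used as their markers are described here across every library of the study. The genes were Fabp7, Apoe, Glul, Slc1a3, Gja1, Gfap, Ednrb, Cdh19, Sox10 and Sox9, taken by symbol from the deposited tables of 30562 genes, and each symbol matched a single gene. All 10 were detected in all 14 libraries, and all 10 passed the filter on low counts that left 17035 genes to test. RNA came from lumbar dorsal root ganglia (L2 to L5) of 7 rats, all male and labelled WT. In each rat an extensor digitorum longus muscle had been grafted onto the saphenous nerve of 1 hindlimb, whose ganglia are called surgical here, and the ganglia of the unoperated hindlimb are called control. Rats A, B and E formed the 6 week groups (3 control and 3 surgical libraries) and rats D, C, G and H the 8 week groups (4 and 4). The labels give neither the strain nor the age of the rats. The control ganglia belonged to operated animals, so no library came from a rat without a graft.

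As background, satellite glia take up glutamate and potassium around the neuron, are coupled to each other by gap junctions, and carry lipid binding proteins at high levels. They share neural crest origin and several of these genes with Schwann cells, and others with astrocytes of the spinal cord. After nerve injury, a rise of Gfap in satellite glia is a commonly used sign of their reactive state. In bulk ganglion RNA, fewer cells of a type and less RNA per cell cannot be told apart.

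The member levels differed by orders of magnitude. On the TPM scale, which accounts for transcript length, Apoe (mean 3484, SD 1348 over 14 libraries) and Glul (281, SD 89.2) were the highest and the next highest in every library. Fabp7 (42.3, SD 23.2) and Sox10 (24.9, SD 9.86) followed. Gfap (median 8.07), Gja1 (8.63), Ednrb (13.5) and Cdh19 (13.6) had ranges that overlapped each other, and their order changed between libraries. Slc1a3 was lower (median 5.66), and Sox9 was the lowest member in every library (1.46, SD 0.79). The smallest count behind any value was 48, for Sox9.

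Promoter sequence is shown for Gfap, the member with the largest difference between the sides, for Slc1a3, which was high together with Gfap in a single library, and for Ednrb, whose level ran most closely with that of the neuronal markers on the control side. The windows are the 250 bases before the RefSeq transcription start in the rat assembly GRCr8, read 5′ to 3′ along the gene, and 8 of the 10 members had an entry. Capitals mark matches on either strand to ACAAAG, a core of SOX sites, to TTGGC, a motif of NFI factors (GCCAA on the other strand), and to AATAAA within 50 bases of the start. The last motif was chosen after the sequences had been looked at. The Gfap window is chr10:88361662-88361911 (minus strand), the Slc1a3 window chr2:59557809-59558058 (minus strand) and the Ednrb window chr15:87086766-87087015 (minus strand).
Gfap: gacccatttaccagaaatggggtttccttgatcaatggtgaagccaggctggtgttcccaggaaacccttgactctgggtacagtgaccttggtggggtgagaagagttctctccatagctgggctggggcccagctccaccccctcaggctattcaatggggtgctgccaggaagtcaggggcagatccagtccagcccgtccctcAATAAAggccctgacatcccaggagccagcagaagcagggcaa
Slc1a3: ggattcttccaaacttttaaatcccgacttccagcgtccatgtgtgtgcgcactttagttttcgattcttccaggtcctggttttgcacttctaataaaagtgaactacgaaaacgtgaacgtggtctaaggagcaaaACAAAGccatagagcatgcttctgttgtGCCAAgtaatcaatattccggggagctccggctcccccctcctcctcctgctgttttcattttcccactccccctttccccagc
Ednrb: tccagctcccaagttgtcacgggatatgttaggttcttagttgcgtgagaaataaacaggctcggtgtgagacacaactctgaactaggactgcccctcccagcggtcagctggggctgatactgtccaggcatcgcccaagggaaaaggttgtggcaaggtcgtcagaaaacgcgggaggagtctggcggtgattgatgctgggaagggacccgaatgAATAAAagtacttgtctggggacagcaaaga
AATAAA stood 43 bases before the start in Gfap and 31 bases before it in Ednrb, and 3.48% of all 33469 windows held it in this stretch. Of the members not shown, it stood at 34 bases in Fabp7 and at 30 bases in 1 of 2 Glul windows. The windows of Apoe, Slc1a3, Cdh19 and Gja1 did not hold it there. In the Slc1a3 window shown, 1 of 3 for this gene, ACAAAG lay 112 bases and GCCAA 84 bases before the start. The other Slc1a3 windows, from nearby starts, held the same ACAAAG at 123 and 133 bases. Over all windows 16.3% held ACAAAG and 40.3% held TTGGC on either strand. No member window held the other SOX core searched, ACAATG (11.1% of all windows), or the STAT motif TTCNNNGAA (7.67%).

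Several libraries had unusual tissue content. Total estimated counts ran from 18489118 to 28237574. They were at most 21029173 at 6 weeks and at least 21590793 at 8 weeks, so depth also separated the times. The surgical library of rat B held spinal cord transcripts: the summed TPM of 11 astrocyte markers was 388 there, against 15.6 to 27.98 in 12 other libraries, and 10 of the 11 had their highest value in it. Aqp4, an astrocyte water channel, was at 85.7 TPM and Slc1a2, the main glutamate transporter of astrocytes, at 30.6 TPM in that library, and both were under 1 TPM in each of the others. The control library of rat H followed with 50.01, of which the connexin Gjb6 gave 31.2, while Aqp4 was at 0.36 there. Skeletal muscle markers summed to 32460 TPM on the surgical side of rat C, 6138 on the control side of rat H and 1340 on the surgical side of rat E, and to at most 138 in the other 11 libraries. Neuronal markers were lowest in the surgical library of rat A (1974 TPM) and the control library of rat B (3017 TPM), and reached 29380 TPM in the surgical library of rat H.

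The comparison of the surgical with the control ganglia of the same rat asks whether the graft changed the ganglion. None of the 10 members passed the test of a difference between the sides. Over both times edgeR's quasi-likelihood test with Benjamini-Hochberg adjustment called 0 of 17035 genes (0%), with 412 genes at an unadjusted p under 0.05, none of them a member, and DESeq2 called 6 genes, none of them a member. Fitted log2 differences of the members (surgical minus control) ran from -0.37 for Fabp7 to 0.74 for Gfap, 4 positive and 6 negative, with a median of -0.05. No member was higher in log2 CPM on the same side in 7 of 7 rats, which 1.19% of all genes were. The plot of levels by rat shows each pair of libraries.

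**Figure D1:**
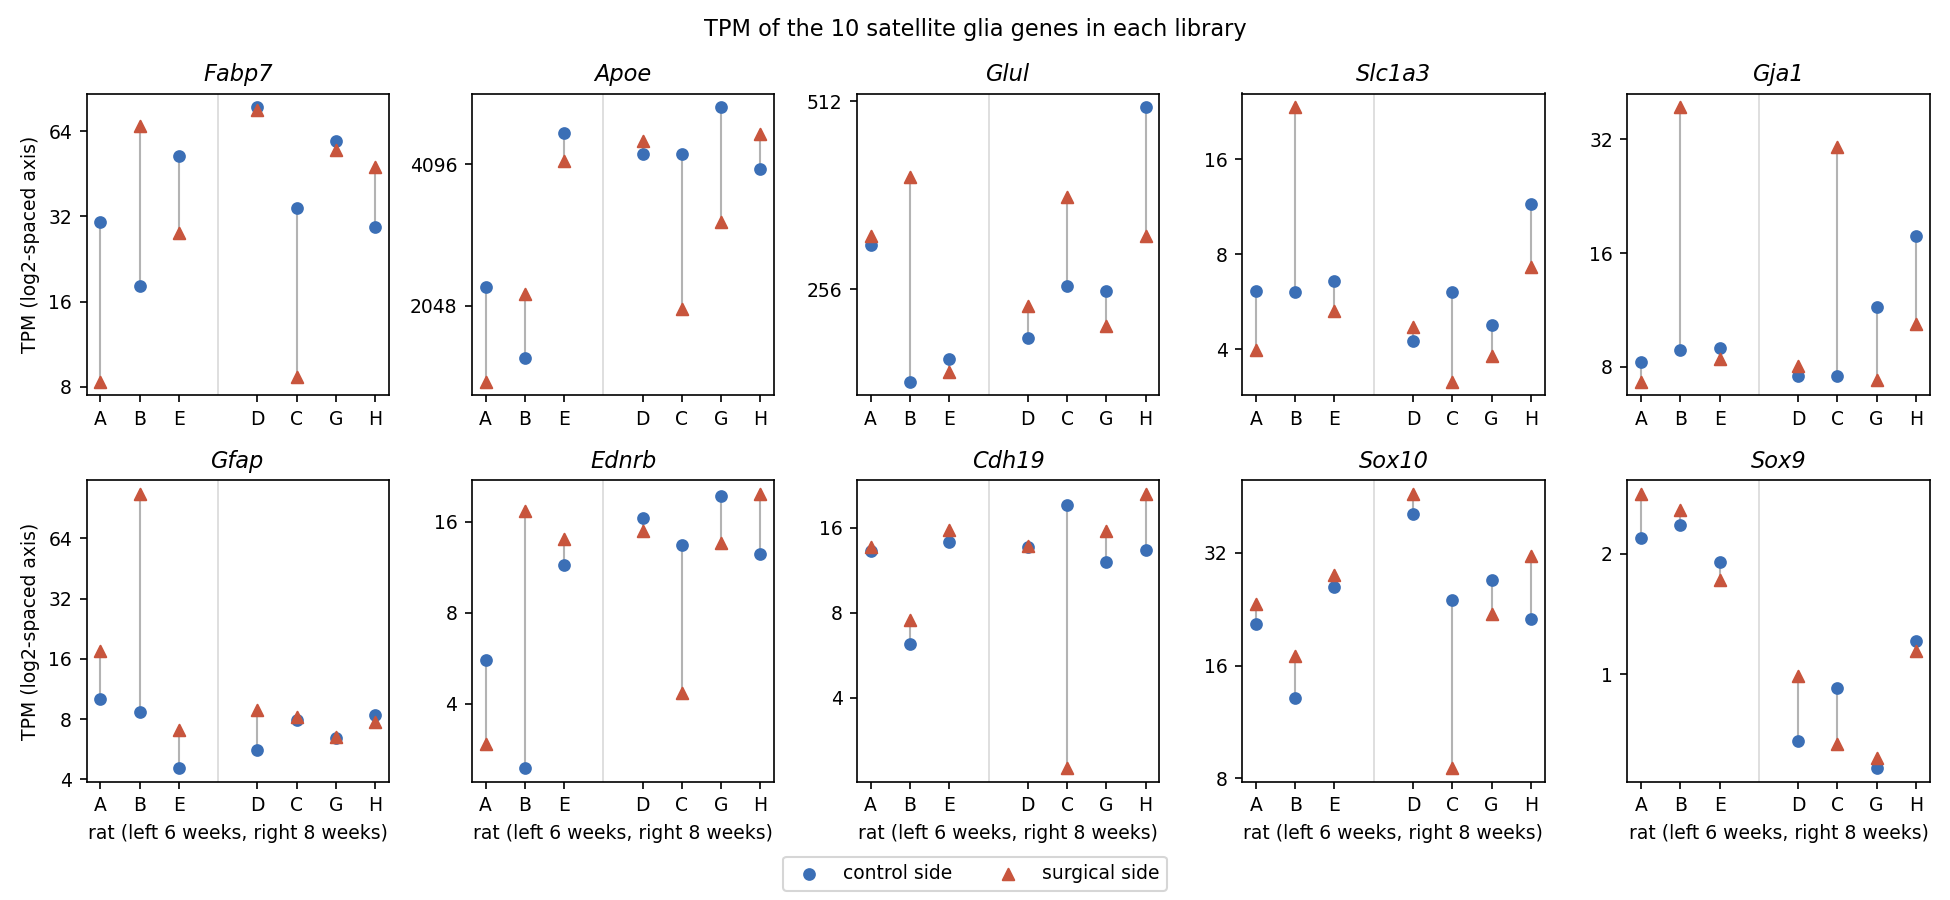
TPM of each of the 10 genes (vertical axis, log2-spaced, a separate scale in each panel) in the 7 rats; circles are control and triangles surgical ganglia, joined within a rat. Rat B stands out in the surgical ganglia for Gfap, Slc1a3 and Gja1, rat C for low Cdh19 and Sox10, and only Sox9 has all 6 week libraries above all 8 week libraries.

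Fabp7 (ENSRNOG00000000814) encodes the brain-type fatty acid binding protein, a widely used marker of satellite glia. Fabp7 at 6 weeks was at 30.6, 18.2 and 52.3 TPM in the control and at 8.36, 66.9 and 28.1 TPM in the surgical ganglia of rats A, B and E. Fabp7 at 8 weeks was at 77.8, 34.3, 59.1 and 29.3 TPM in the control and at 76.1, 8.66, 54.8 and 47.9 TPM in the surgical ganglia of rats D, C, G and H. The surgical ganglia of rats A and C held the lowest Fabp7 of the study and the groups overlapped throughout. Within rats, Fabp7 differed in log2 CPM (surgical minus control) by -1.78, 1.04 and -0.96 in rats A, B and E and 0.06, -1.70, 0.10 and 0.55 in rats D, C, G and H. In 4 of 7 rats it was higher in the surgical ganglia on this scale. In TPM rats D and G were lower on the surgical side, so the direction within these rats depends on the scaling. The fitted difference was -0.37 (SE 0.37, edgeR adjusted p = 1). It was -0.13 without rat A, -0.15 without rat C and -0.60 without rat B. The libraries with the lowest Fabp7 were those with the lowest neuronal sum and with the highest muscle sum. Their red blood cell sums (161100 and 164500 TPM) were the highest of the study. The part of any of these in the value was not tested.

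Apoe (ENSRNOG00000018454), the apolipoprotein that carries cholesterol between cells, was the most abundant member. Apoe at 6 weeks was at 2250.1, 1585 and 4758 TPM in the control and at 1416, 2169 and 4161 TPM in the surgical ganglia of rats A, B and E. Apoe at 8 weeks was at 4304, 4304, 5406 and 3991 TPM in the control and at 4589, 2019, 3088 and 4742 TPM in the surgical ganglia of rats D, C, G and H. The 5 lowest libraries were both of rats A and B and the surgical one of rat C. These were also the 5 libraries with the highest red blood cell sums, and the part of that in the Apoe value was not tested. Apoe was lower on the surgical side in log2 CPM in 3 of 3 rats at 6 weeks and in 5 of 7 rats in all, with differences of -0.62, -0.12 and -0.29 in rats A, B and E and 0.18, -0.66, -0.65 and 0.07 in rats D, C, G and H. The fitted difference over both times was -0.30 (SE 0.18, edgeR adjusted p = 1), and it kept its sign, between -0.38 and -0.23, under all 15 alternative settings. On the TPM scale the Apoe of rat B was higher on the surgical side, so the direction within this rat depends on the scaling.

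Glul (ENSRNOG00000049560) is glutamine synthetase, which turns glutamate into glutamine. Glul at 6 weeks was at 301, 182 and 199 TPM in the control and at 311, 387 and 189 TPM in the surgical ganglia of rats A, B and E. Glul at 8 weeks was at 214, 259, 255 and 501 TPM in the control and at 241, 359.9, 224 and 312 TPM in the surgical ganglia of rats D, C, G and H. The control ganglia of rat H held the highest Glul of the study. The fitted difference between the sides was -0.02 (SE 0.18, edgeR adjusted p = 1) and its sign turned with TPM in place of counts, so no direction is given for Glul.

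Slc1a3 (ENSRNOG00000016163) encodes GLAST, the glutamate transporter of satellite glia and of astrocytes. Slc1a3 at 6 weeks was at 6.13, 6.07 and 6.58 TPM in the control and at 3.98, 23.4 and 5.27 TPM in the surgical ganglia of rats A, B and E. Slc1a3 at 8 weeks was at 4.23, 6.06, 4.78 and 11.6 TPM in the control and at 4.70, 3.16, 3.81 and 7.29 TPM in the surgical ganglia of rats D, C, G and H. The surgical library of rat B was the highest, the control library of rat H the next, and the remaining 12 lay between 3.16 and 7.29 TPM. Within rats the log2 difference was -0.56, 1.44 and -0.39 in rats A, B and E and 0.23, -0.54, -0.17 and -0.77 in rats D, C, G and H, so the surgical side was higher in rats B and D and lower in the other 5. The fitted difference was -0.12 (SE 0.25, edgeR adjusted p = 1). It was -0.36 without rat B (SE 0.15, unadjusted p = 0.0421, adjusted p = 0.876) and -0.013 without rat H. The 2 highest Slc1a3 libraries were also the 2 with the highest summed spinal cord astrocyte markers, and the part of spinal cord RNA in the Slc1a3 value was not tested.

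Gja1 (ENSRNOG00000000805) encodes connexin 43, which forms gap junctions between satellite glia. Gja1 at 6 weeks was at 8.22, 8.86 and 8.96 TPM in the control and at 7.31, 39.0 and 8.40 TPM in the surgical ganglia of rats A, B and E. Gja1 at 8 weeks was at 7.56, 7.54, 11.5 and 17.8 TPM in the control and at 8.06, 30.5, 7.37 and 10.4 TPM in the surgical ganglia of rats D, C, G and H. Apart from the surgical libraries of rats B and C and the control library of rat H, Gja1 lay between 7.31 and 11.5 TPM. The surgical library of rat C had little spinal cord signal (astrocyte sum 16.9 TPM) and the highest fibroblast sum (7124 TPM, against 442 to 2538 elsewhere). That sum was mostly the collagens Col1a1 (3469 TPM) and Col1a2 (3041 TPM): 3 of 10 fibroblast markers were highest there, and Dcn (131.5 TPM) and Slc47a1 (2.21 TPM) were at their lowest of the 14 libraries. The fitted difference was 0.30 (SE 0.41, edgeR adjusted p = 1), and -0.03 (SE 0.30) without rat C. The contribution of other cells to the Gja1 level was not tested.

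Gfap (ENSRNOG00000002919), the intermediate filament protein of astrocytes and of reactive satellite glia, had the largest fitted difference between the sides. Gfap at 6 weeks was at 10.1, 8.70 and 4.55 TPM in the control and at 17.6, 107 and 7.06 TPM in the surgical ganglia of rats A, B and E. Gfap at 8 weeks was at 5.62, 7.95, 6.47 and 8.41 TPM in the control and at 8.88, 8.19, 6.53 and 7.76 TPM in the surgical ganglia of rats D, C, G and H. The surgical library of rat B stood far above all others, that of rat A was the next highest, and the remaining 12 lay between 4.55 and 10.1 TPM. Within rats the difference in log2 CPM was 0.85, 3.02 and 0.53 in rats A, B and E and 0.72, 0.45, 0.16 and -0.30 in rats D, C, G and H, higher on the surgical side in 6 of 7. The fitted difference over both times was 0.74 (SE 0.34, unadjusted p = 0.0623, edgeR adjusted p = 1). Without rat B it was 0.42 (SE 0.17, edgeR unadjusted p = 0.0363, adjusted p = 0.876). Without rats B, C and H together it was 0.57 (SE 0.15, edgeR unadjusted p = 0.00931, adjusted p = 0.799). It did not pass the threshold with or without rat B, and the part of spinal cord RNA in the Gfap value of rat B was not tested.

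At 6 weeks edgeR called 0 of 17035 genes (0%) between the sides, with 546 (3.21%) at an unadjusted p under 0.05. Gfap was the 1 member among those, and DESeq2 called 44 genes, no member among them. In 3 of 3 rats Gfap was higher in the surgical ganglia, with a fitted difference of 1.44 (SE 0.47, unadjusted p = 0.0178, adjusted p = 0.999). Without rat B the 6 week difference was 0.71 (SE 0.28, edgeR unadjusted p = 0.04, adjusted p = 1). In log2 CPM, Gfap and Apoe were the 2 members that went 1 way in all 3 rats at 6 weeks, against 25.1% of all genes. The set changed with the scale. In TPM, Gfap, Cdh19 and Sox10 were higher on the surgical side in all 3 rats, and Apoe did not go 1 way. At 8 weeks edgeR called 0 of 17035 genes (0%), with 180 at an unadjusted p under 0.05, none a member, and DESeq2 called 4, again no member. No member went 1 way in log2 CPM in all 4 rats at 8 weeks, against 7.06% of all genes. The difference between the times in the side effect was tested as an interaction: edgeR called 0 of 17035 genes (0%), with 252 at an unadjusted p under 0.05, and DESeq2 called 5, no member in either. For Gfap this interaction was -1.17 (SE 0.61, adjusted p = 1), and -0.44 (SE 0.34) without rat B.

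**Figure D2:**
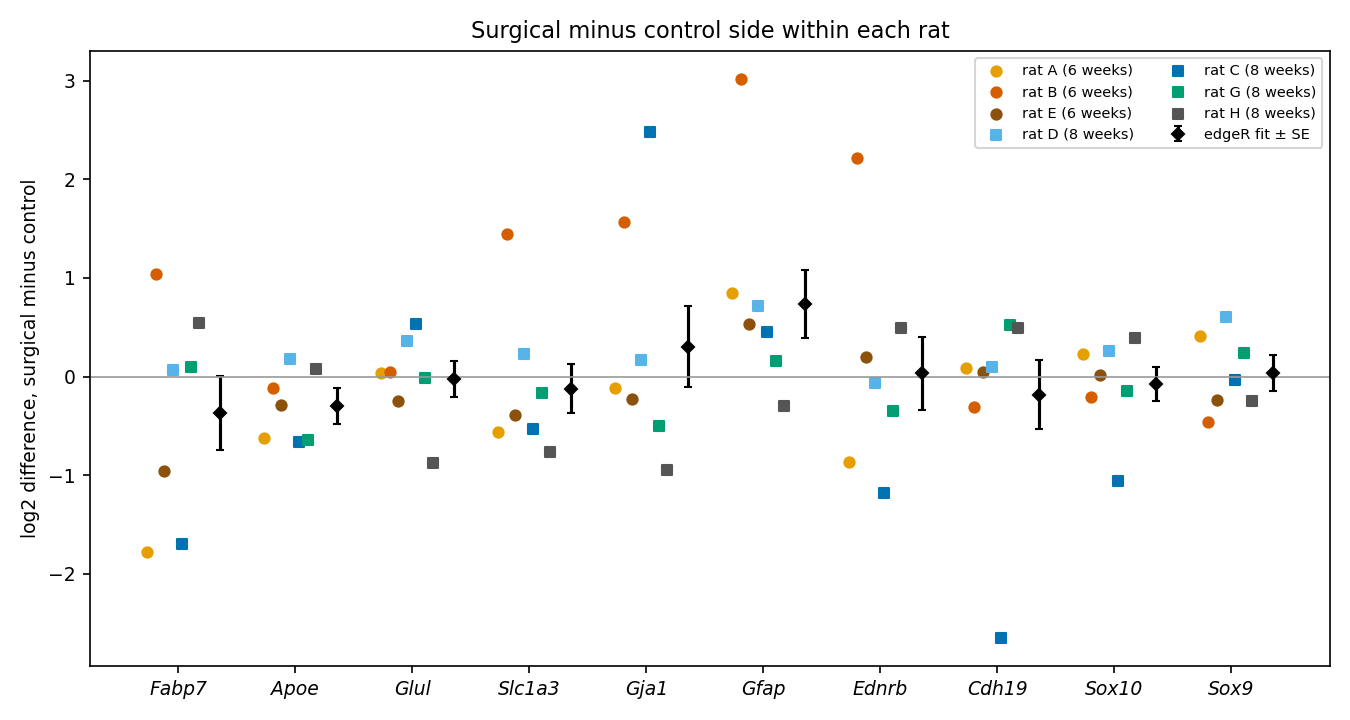
Log2 CPM on the surgical side minus the control side (vertical axis) for each gene in each rat, circles for 6 and squares for 8 weeks, beside the edgeR fit over both times with its SE (black diamond). Gfap is above 0 in 6 of 7 rats, and the points far from the rest belong to rats B and C.

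Ednrb (ENSRNOG00000010997) is the endothelin B receptor, found on satellite glia and on Schwann cell precursors. Ednrb at 6 weeks was at 5.59, 2.45 and 11.5 TPM in the control and at 2.95, 17.3 and 14.1 TPM in the surgical ganglia of rats A, B and E. Ednrb at 8 weeks was at 16.5, 13.4, 19.4 and 12.5 TPM in the control and at 14.8, 4.34, 13.6 and 19.8 TPM in the surgical ganglia of rats D, C, G and H. It was low in both ganglia of rat A, in the control ganglia of rat B and in the surgical ganglia of rat C, and the groups overlapped. The within-rat differences, -0.87, 2.22 and 0.20 in rats A, B and E and -0.07, -1.19, -0.35 and 0.49 in rats D, C, G and H, had no common direction. Their fitted value was 0.03 (SE 0.37, edgeR adjusted p = 1), and it was -0.28 (SE 0.23) without rat B.

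Cdh19 (ENSRNOG00000029841), a cadherin of Schwann cell precursors and satellite glia, was among the steadier members apart from rats B and C. Cdh19 at 6 weeks was at 13.3, 6.21 and 14.2 TPM in the control and at 13.6, 7.54 and 15.7 TPM in the surgical ganglia of rats A, B and E. Cdh19 at 8 weeks was at 13.6, 19.2, 12.1 and 13.3 TPM in the control and at 13.7, 2.26, 15.5 and 21.1 TPM in the surgical ganglia of rats D, C, G and H. The surgical library of rat C was the lowest of the 14 and both libraries of rat B came next. Cdh19 was higher on the surgical side in log2 CPM in 5 of 7 rats, with a fitted difference of -0.18 (SE 0.35, edgeR adjusted p = 1) and of 0.15 (SE 0.13) without rat C. No direction is given for it, since 1 rat turned the sign.

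Sox10 (ENSRNOG00000011305) is the transcription factor that specifies peripheral glia, satellite cells and Schwann cells alike. Sox10 at 6 weeks was at 20.6, 13.1 and 25.9 TPM in the control and at 23.3, 17.0 and 27.9 TPM in the surgical ganglia of rats A, B and E. Sox10 at 8 weeks was at 40.7, 23.98, 27.1 and 21.4 TPM in the control and at 46.0, 8.52, 21.9 and 31.5 TPM in the surgical ganglia of rats D, C, G and H. The highest values came from both ganglia of rat D and the lowest from the surgical library of rat C. The fitted difference was -0.07 (SE 0.17, edgeR adjusted p = 1), and 0.08 (SE 0.12) without rat C. The surgical library of rat C, low in Sox10, Cdh19, Ednrb and Fabp7, also had the lowest myelinating Schwann cell sum (1576 TPM, against 4100 to 12370 elsewhere) beside the muscle and type I collagen signal given above.

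Sox9 (ENSRNOG00000002607), a transcription factor of glial precursors and of astrocytes, separated the times. Sox9 at 6 weeks was at 2.18, 2.37 and 1.91 TPM in the control and at 2.83, 2.57 and 1.72 TPM in the surgical ganglia of rats A, B and E. Sox9 at 8 weeks was at 0.681, 0.924, 0.582 and 1.21 TPM in the control and at 0.990, 0.667, 0.617 and 1.14 TPM in the surgical ganglia of rats D, C, G and H. Every 6 week library was above every 8 week library in Sox9. Total counts also separated the times, lower in every 6 week library, and the part of depth in the Sox9 value was not tested. Libraries of the 2 times that did not overlap in log2 CPM were common: 24.5% of all genes in control and 10.1% in surgical ganglia. Between the sides the fitted difference was 0.04 (SE 0.18, edgeR adjusted p = 1), with the surgical side higher in log2 CPM in 3 of 7 rats.

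The times were compared within each side, between different rats. On the control side edgeR called 25 of 16346 genes (0.153%), 3 higher and 22 lower at 8 weeks, and 0 of the 10 members were among them. At an unadjusted p under 0.05 there were 5108 genes (31.2%), and Sox9 was the 1 member among them. The count of 25 called genes rests on all 7 rats. It was 0 without any single one of rats A, B, C, D and G, 1 without rat H and 6388 without rat E. Sox9 came closest, with 2.15 TPM (SD 0.23, n = 3) at 6 weeks and 0.85 TPM (SD 0.28, n = 4) at 8 weeks, and a fitted log2 difference of -2.0 (SE 0.35, unadjusted p = 0.000552, adjusted p = 0.0785). On the surgical side edgeR called 0 of 16606 genes (0%), with 1089 (6.56%) at an unadjusted p under 0.05. Sox9, Gfap and Slc1a3 were the 3 members among those. The surgical Sox9 means were 2.37 TPM (SD 0.58, n = 3) and 0.85 TPM (SD 0.25, n = 4), with a fitted difference of -1.82 (SE 0.37, unadjusted p = 0.00145, adjusted p = 0.671). DESeq2 called 3133 of 16346 genes in control ganglia and 8 of 16606 in surgical ganglia. Sox9 was among both, with differences of -1.97 (adjusted p = 2.3e-05) and -1.81 (adjusted p = 0.0305). Sox9 was the 1 member of 10 whose 6 and 8 week libraries did not overlap in log2 CPM on either side, against 24.5% of all genes in control and 10.1% in surgical ganglia. The 2 sides come from the same rats, so they are not independent of each other.

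The size of a difference between the times depended on the scale. On log2(TPM + 0.1) the median of all genes moved by 0.57 in control and 0.26 in surgical ganglia, against -0.05 and 0.02 in the scaled counts. Sox9 kept its sign on the log2(TPM + 0.1) scale, with -1.29 (SE 0.27, limma adjusted p = 0.0723) and -1.38 (SE 0.31, limma adjusted p = 0.606). Without rat E the edgeR adjusted p of Sox9 on the control side was 0.0123, without any other single rat it was between 0.0749 and 0.262, and without rats B, C and H together it was 0.327. Without rat E the test called 6388 of 16676 genes, so a call was common among all genes. Gfap at -1.11 (adjusted p = 0.0129) and Ednrb at 1.25 (adjusted p = 0.0218) were included. With all rats these were -0.83 (SE 0.38, adjusted p = 0.173) for Gfap and 0.75 (SE 0.35, adjusted p = 0.182) for Ednrb. On log2(TPM + 0.1) they were -0.07 (SE 0.32, limma adjusted p = 0.879) and 1.47 (SE 0.50, limma adjusted p = 0.0759).

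On the surgical side the time difference was -2.68 (SE 0.79, unadjusted p = 0.0111, adjusted p = 0.671) for Gfap and -1.36 (SE 0.57, unadjusted p = 0.0464, adjusted p = 0.671) for Slc1a3. On log2(TPM + 0.1) they were -1.59 (SE 0.85, limma adjusted p = 0.606) and -0.80 (SE 0.64, limma adjusted p = 0.623). Both moved with rat B: without it they were -1.27 (SE 0.52) for Gfap and -0.33 (SE 0.29) for Slc1a3. Sox9 on the surgical side was -1.99 (SE 0.46) without rat B. The neuronal sum on the control side ran from 3017 to 18930 TPM at 6 weeks and from 14320 to 27560 TPM at 8 weeks, and the myelinating Schwann cell sum from 8183 to 9323 TPM and from 4100 to 8263 TPM. Over the 7 control rats the log2 TPM of Sox9 was related to the log2 neuronal sum with r = -0.819 (exact permutation p = 0.0139, adjusted p = 0.0926) and rho = -0.964 (exact p = 0.00278, adjusted p = 0.0556). Its relation to the log2 Schwann cell sum had r = 0.852 (exact permutation p = 0.0177, adjusted p = 0.101) and rho = 0.821 (exact p = 0.0341, adjusted p = 0.171). With both measures centred on their time, r was -0.57 (exact permutation p = 0.00694, the smallest that 144 orders can give, adjusted p = 0.222) and 0.669 (exact permutation p = 0.292, adjusted p = 0.513). Without the 2 rats farthest from the median sum, r was -0.739 and 0.54. These p-values are adjusted over the 40 relations described below, and none of these passed.

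**Figure D3:**
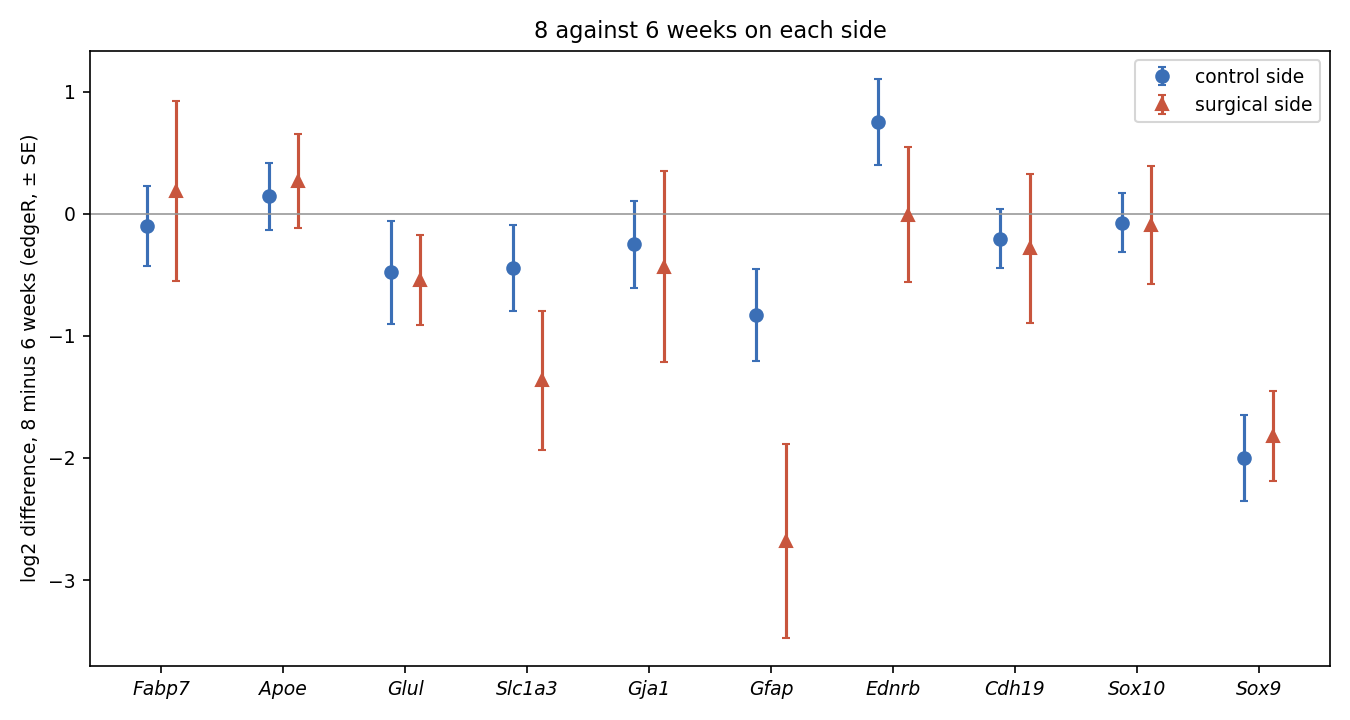
Fitted log2 difference, 8 minus 6 weeks (vertical axis, edgeR, bars are SE), for each gene in control (circles) and surgical ganglia (triangles). Sox9 is near -2 on both sides, and the surgical values of Gfap and Slc1a3 rest in large part on rat B.

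The members did not rise and fall as a set across the 14 libraries. Over the 45 pairs of members the Spearman correlation of log2 CPM ran from -0.78 (Apoe with Gfap) to 0.745 (Glul with Sox9), with 22 positive and 23 negative. Grouped after these values were seen, Glul, Slc1a3, Gja1, Gfap and Sox9 were positively related in 10 of 10 pairs (0.407 to 0.745), and Fabp7, Apoe, Ednrb and Sox10 in 6 of 6 pairs (0.196 to 0.618). Between those groups 19 of 20 pairs were negative. In the 8 libraries left without rats B, C and H, 10 of 10 pairs of the former group were positive (0.214 to 0.881), and 15 of 20 pairs between the groups were negative. These 8 are part of the 14 from which the groups were chosen, so they are no independent check of the groups. Of Fabp7, Apoe, Ednrb and Sox10, 5 of 6 pairs were positive there, and Apoe with Sox10 was at 0. Cdh19 was placed in neither group. The correlation of Cdh19 with Sox10 was 0.525 over 14 libraries and 0.024 over the 8, and that of Cdh19 with Ednrb -0.121 and -0.929, so neither was steady. Over the 8 it was positive with Sox9 (0.905), Glul (0.786), Slc1a3 (0.714), Gfap (0.643) and Gja1 (0.333). It was negative there with Fabp7 (-0.69) and Apoe (-0.595). Over the 14 its values with Sox9, Glul and Gja1 were 0.301, 0.108 and -0.503. These are descriptions over libraries that share rats, and all values of a library share its depth and scaling.

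**Figure D4:**
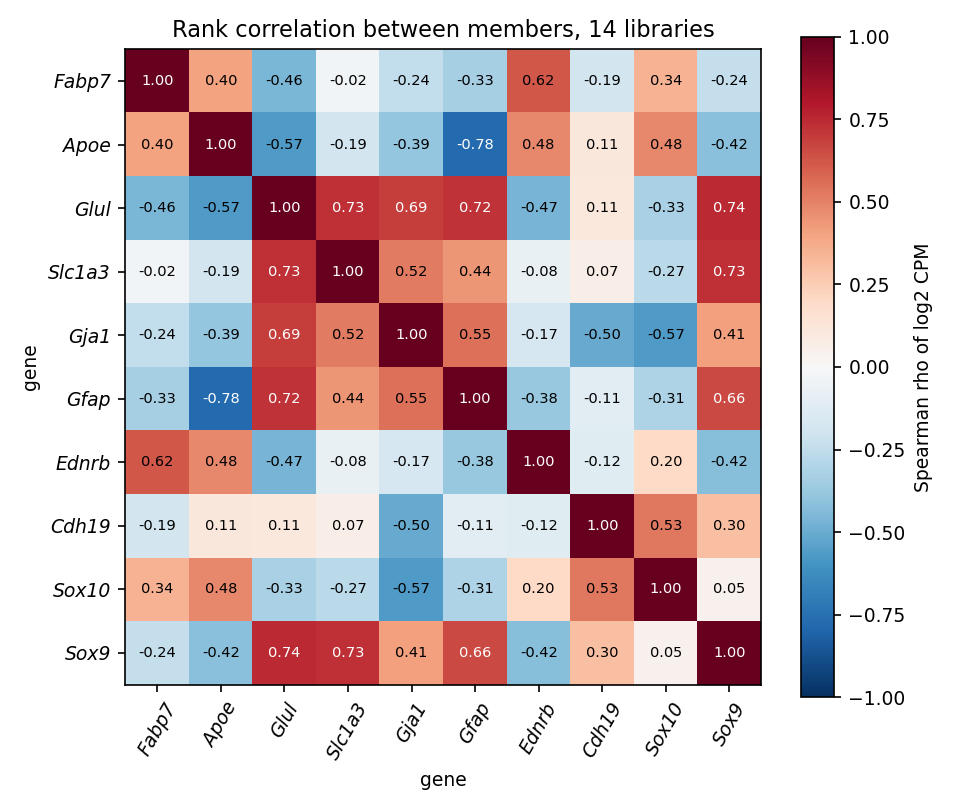
Spearman correlation of log2 CPM over 14 libraries for each pair of the 10 genes, red for positive and blue for negative. Glul, Slc1a3, Gja1, Gfap and Sox9 are positive with each other and, in 19 of 20 pairs, negative with Fabp7, Apoe, Ednrb and Sox10. These groups were chosen from the values shown.

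Member levels were also set beside the neuronal and myelinating Schwann cell sums over the 7 rats of each side, a comparison of 40 relations added after the data had been seen. On the control side the log2 TPM of Ednrb rose with the log2 neuronal sum (Pearson r = 0.984, exact permutation p = 0.00119, adjusted p = 0.0377; Spearman rho = 0.964, exact p = 0.00278, adjusted p = 0.0556). Apoe did so too (r = 0.971, exact permutation p = 0.00377, adjusted p = 0.0377; rho = 0.893, exact p = 0.0123, adjusted p = 0.082), and so did Sox10 (r = 0.871, exact permutation p = 0.00218, adjusted p = 0.0377; rho = 0.929, exact p = 0.00675, adjusted p = 0.082). On the surgical side Apoe was the member that passed (r = 0.887, exact permutation p = 0.00337, adjusted p = 0.0377; rho = 0.893, exact p = 0.0123, adjusted p = 0.082). Ednrb did not pass there (r = 0.839, exact permutation p = 0.0234, adjusted p = 0.117). Fabp7 passed on neither side (control r = 0.845, exact permutation p = 0.0111, adjusted p = 0.0889; surgical r = 0.73, exact permutation p = 0.0411, adjusted p = 0.183). Adjusted Spearman p-values were at or above 0.0556 in all 40 relations. Without rats A and B, the 2 farthest from the median neuronal sum, r on the control side was 0.772 for Ednrb, 0.572 for Apoe and 0.652 for Sox10 over 5 rats, so these relations rest in part on those rats. Both low rats were of the 6 week group. With both measures centred on their time, a setting also chosen after seeing the data, r on the control side was 0.969 for Ednrb (exact permutation p = 0.0278, adjusted p = 0.222), 0.951 for Apoe (exact permutation p = 0.0486, adjusted p = 0.247) and 0.812 for Sox10 (exact permutation p = 0.0625, adjusted p = 0.25). On the surgical side the centred r of Apoe was 0.87 (exact permutation p = 0.0208, adjusted p = 0.222), and it was 0.798 uncentred without rats A and C. No centred relation of the 40 passed after adjustment, and 144 orders allow no p below 0.00694. TPM are shares of a library, so the points of a plot share the total of each library. The red blood cell, muscle and spinal cord signal described above enters that total.

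**Figure D5:**
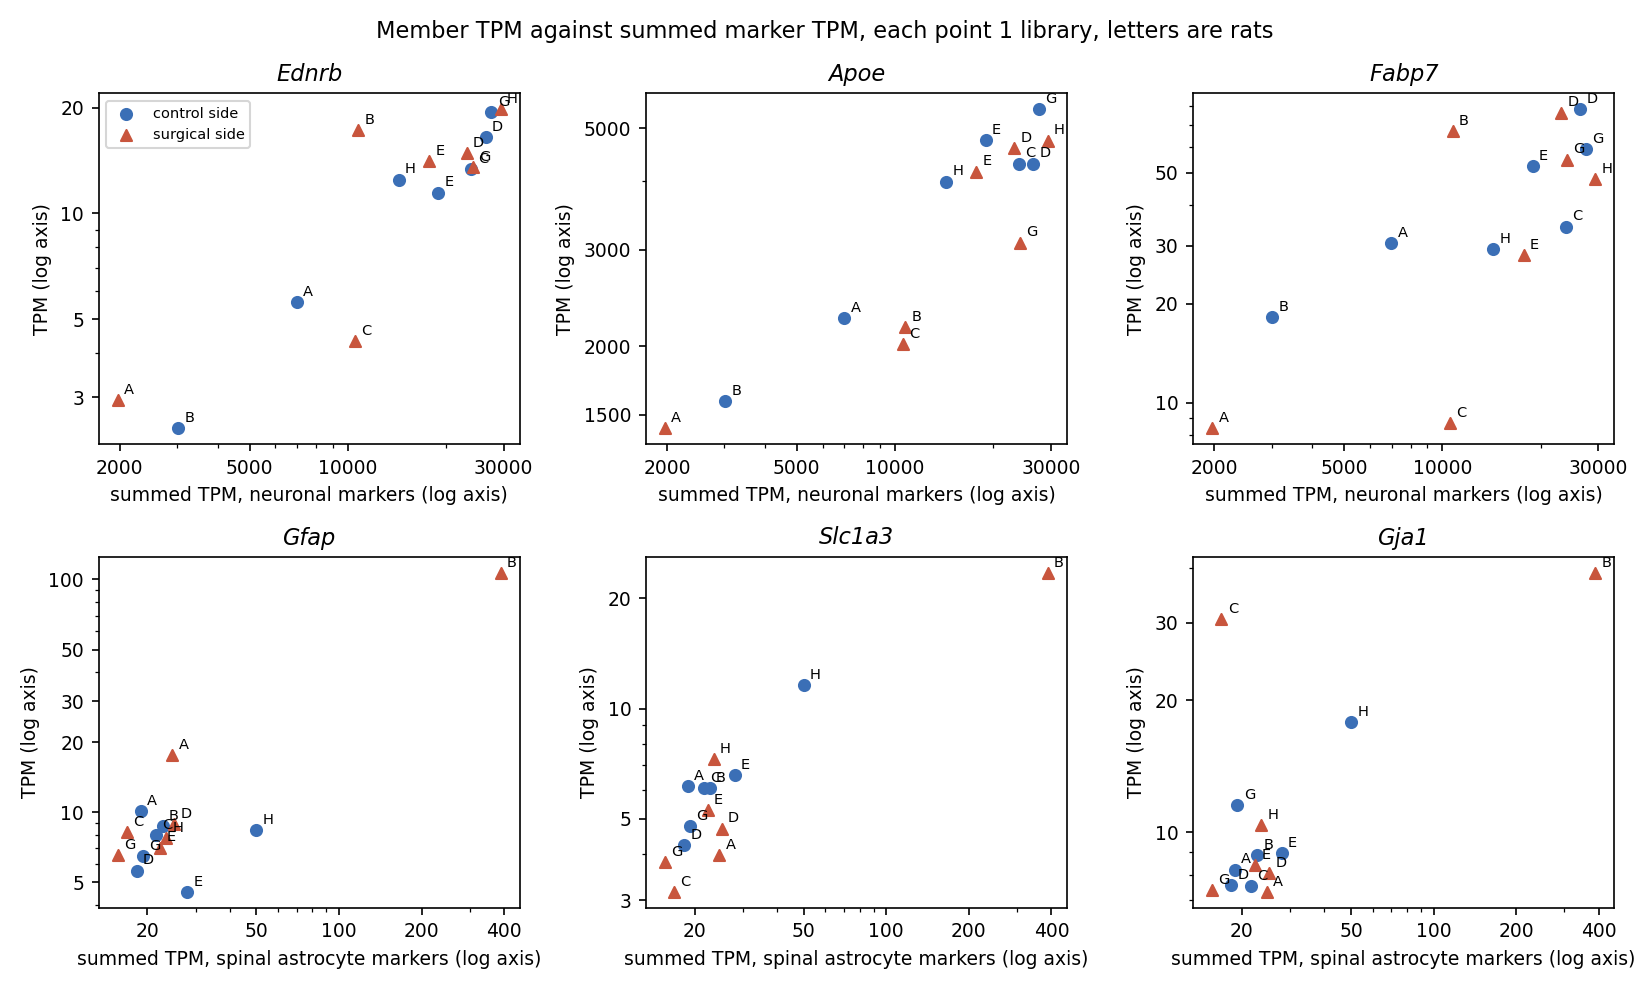
Upper panels, TPM of Ednrb, Apoe and Fabp7 against the summed TPM of 16 neuronal markers; lower panels, TPM of Gfap, Slc1a3 and Gja1 against the summed TPM of 11 spinal cord astrocyte markers (all axes logarithmic, 1 point a library, letters are rats). On the control side the upper values climb with the neuronal sum. On the surgical side, r without rats A and C was 0.798 for Apoe, 0.029 for Ednrb and -0.081 for Fabp7. The surgical library of rat B is alone at the right of the lower panels with the highest Gfap, Slc1a3 and Gja1.

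The genes most like each member over the 14 libraries, by Spearman rho of log2 CPM among 13862 genes, were different for every member. Genes near Ednrb included Lrrc4 (0.974) and Atp2b2, a calcium pump (0.965). Apoe was nearest to Tmem53 (0.96), the galectin Lgals1 (0.943) and the mevalonate kinase gene Mvk (0.938). Sox9 was nearest to Syde2 (0.978), Cd302 (0.974) and Smndc1 (0.974). Slc1a3 was nearest to Ppt1 (0.947), a lysosomal thioesterase gene, Klhl7 (0.93) and Jam2 (0.912). Glul was nearest to the sugar transporter Slc2a12 (0.934), Pamr1 (0.925) and Dhrs9 (0.903). Gfap was nearest to Gmppb (0.916), RGD1310951 (0.908) and Jmjd1c (0.908), and Sox10 to the collagen Col5a3 (0.895), Sema3b (0.895) and Kiz (0.886). For Gja1, Fabp7 and Cdh19 the nearest genes had rho of 0.899 (Ankrd39), 0.877 (AABR07030823.1) and 0.855 (Pus3). No member was among the 3 nearest genes of another member.

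The wider pathways of the members were read from 8 lists, and edgeR called 0 genes of any list in any of the 6 comparisons. Of glutamate and potassium handling 12 of 12 genes were tested between the sides, 6 with a positive and 6 with a negative difference. Slc6a13, a GABA transporter, had the smallest p at -0.76 (SE 0.60, adjusted p = 1), and Slc1a2 was at 0.98 (SE 0.83), with a surgical mean of 4.62 TPM set by rat B. Of 23 connexins and pannexins 16 were tested, 6 positive and 10 negative, with Gjb5 at -0.47 (SE 0.26) and Gjb2 at -0.95 (SE 0.56). Of the SOX and glial transcription factors 9 of 15 were positive, and Sox11, a factor induced in sensory neurons after axon injury, was higher in the surgical ganglia of 6 of 7 rats (0.82, SE 0.28, unadjusted p = 0.0171, adjusted p = 1).

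Among 19 genes of lipid carriers and lipid handling 12 were negative, with the fatty acid binding protein Fabp3 at -0.60 (SE 0.27, higher in surgical ganglia in 1 of 7 rats) and Clu at -0.24 (SE 0.17). The endothelin system, the ligands, receptors and converting enzymes around Ednrb, had 2 of 8 genes positive. Its neuronal peptidase Ecel1 was at 1.12 (SE 0.50, higher in 6 of 7 rats) and the endothelin A receptor Ednra at -0.45 (SE 0.31). In the glial reactivity list 6 of 15 tested genes were positive, Gfap with the smallest p, and the cytokine gene Tnf was at -0.60 (SE 0.47) and the receptor gene Osmr at -0.19 (SE 0.15). Cadherins had 3 of 9 positive, with Cdh9 at -0.72 (SE 0.35). Of 20 other satellite glia genes 9 were positive, with Dbi at -0.30 (SE 0.22), Atp1b2 at 0.37 (SE 0.31) and Vim at -0.21 (SE 0.23). Every adjusted p in these lists between the sides was 1. The medians of the 8 lists lay between -0.18 (endothelin system) and 0.04 (SOX and glial factors), beside a median over all genes of 0.0004. Between the times on the control side the 4 genes of these lists with the smallest p beside Sox9, chosen after their values were seen, were Dbi, a carrier of acyl-CoA esters, at -1.08 (SE 0.17, adjusted p = 0.0659), and the intermediate filament gene Nes at -1.04 (SE 0.19, adjusted p = 0.0785). The other 2 were the tetraspanin gene Cd9 at -1.09 (SE 0.23, adjusted p = 0.084) and Sox8, a close relative of Sox10, at -1.89 (SE 0.40, adjusted p = 0.0843).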

How the data were processed

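RNA from dorsal root ganglia of 7 rats was sequenced on both sides. The authors deposited estimated counts per gene, which were whole numbers (0 non-whole values), and TPM for the same genes. Per the submitters' processing notes, FastQC, Trim Galore, Salmon and DESeq2 were used. Versions and the genome build are not given in the sources used here. Per the labels the molecule was polyA RNA, while the protocol names ribosomal depletion. Both statements stand as found. Letters C and D are exchanged between titles and column names, which leaves every pair of libraries intact, and title letters are used. Replicate 1 in the title of the surgical sample of rat C was read as 2. Pairing of the sides comes from the rat named in the titles.

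Counts were tested with edgeR 4.0.16 (R 4.3.3): filterByExpr with a minimum count of 10, TMM scaling, robust quasi-likelihood, two-sided p adjusted by Benjamini-Hochberg over all genes tested, threshold 0.05. In comparisons of the sides the rat was a block in a model of 14 libraries, and comparisons of the times used the 7 libraries of 1 side. The SE was the log2 difference divided by the square root of F. Single libraries were given as TPM or as log2 CPM with a prior count of 2. Alternatives were DESeq2 1.42.0, its size factors, 2 other filters, limma 3.58.1 on log2 TPM plus 1 or 0.1, no block, each rat left out, and rats B, C and H left out. The script was tested on simulated data. The labels do not describe further replicates within a rat.

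All 10 members were named. For each pathway list the genes with the 3 smallest p-values between the sides were eligible, and for each member the 3 genes of highest Spearman rho with a mean of at least 1 TPM. A gene that this rule selects is not reported here. Members, lists and alternatives were chosen with earlier results of these data known. Fits other than that over both times are printed for members with an unadjusted p under 0.1. Sequences came from RefSeq (GRCr8).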

Additional observations from a re-analysis of the deposited data

Results flagged for a closer look

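Dixon's criterion was applied to 30 groups, and 5 held a value far from the rest, which chance meets in about 1 of 20 groups. A group was the 4 TPM values of a member on 1 side at 8 weeks, or its within-rat differences over 7 rats. TPM at 6 weeks, with 3 values on each side, were not examined in this way. Glul was at 500.6 TPM in the control ganglia of rat H, above the other 3 control ganglia at 8 weeks. Gja1 was at 30.53 TPM in the surgical ganglia of rat C, above the other 3 surgical ganglia at 8 weeks. The within-rat difference of Gfap was 3.02 in rat B, far above the other 6 rats. For Cdh19 it was -2.649 and for Sox10 -1.062 in rat C, below the other 6 rats in both. All 5 come from rats B, C and H, each of which had spinal cord or muscle transcripts in a library. Rat E, whose surgical library also held muscle transcripts (1340 TPM), gave no flagged value. The part of these transcripts in the flagged values was not tested.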

How the results depend on the processing

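Of 264 member values under alternatives, 241 kept their direction and their side of the threshold, 18 differences between the sides turned sign, and 5 between the times passed the threshold (Sox9 with DESeq2 in control and surgical ganglia, and Sox9, Gfap and Ednrb in control ganglia without rat E). DESeq2 called 6, 44, 4 and 5 genes in the comparisons of the sides (both times, 6 weeks, 8 weeks, interaction) and 3133 and 8 between the times on the control and surgical sides. With limma on log2 TPM plus 1 the latter were 8 and 3, with plus 0.1 they were 14 and 5, and Glul between the sides turned to 0.12 under both. Without the rat block (no pairing), 2 genes were called at 6 weeks, and Slc1a3 turned to 0.0125 and Sox10 to 0.0224; no other call changed. Without rats B, C and H, 0 genes were called between the times on the control side, and over both times Glul turned to 0.029, Gja1 to -0.17, Ednrb to -0.27, Cdh19 to 0.19 and Sox10 to 0.087. With 1 rat left out, the differences of the sides ran from -0.60 to -0.13 for Fabp7, -0.36 to -0.013 for Slc1a3, -0.12 to 0.11 for Glul, -0.032 to 0.52 for Gja1, -0.28 to 0.24 for Ednrb, -0.31 to 0.15 for Cdh19, -0.15 to 0.083 for Sox10 and -0.061 to 0.14 for Sox9. The count on the control side ran from 0 to 6388 (without rat E), and 1 gene was called without rat H. The cause of these shifts was not tested. Gfap and Apoe kept their sign between the sides under all 15 alternatives, and Sox9 between the times under all 14. No alternative called a member between the sides. Sox9 rests on 48 to 262 counts a library, the fewest of any member at its lowest, and groups hold 3 or 4 rats.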
